A study of Mus musculus with 6 samples.

Results

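The sugar and monocarboxylate transporters described here are 10 genes of the Slc2 and Slc5 families, Slc5a1, Slc5a2, Slc5a8, Slc5a10, Slc5a12, Slc2a1, Slc2a2, Slc2a3, Slc2a5 and Slc2a9. They were chosen by gene symbol, with earlier results of these data known, and all 10 were found among the 24422 genes listed and among the 15171 genes tested. Messenger RNA of 6 whole mouse kidneys was sequenced, 3 from control mice (wild type) and 3 from mice labelled TfR1KO;KspCre. Both groups were C57BL/6 mice at postnatal day 60 on an iron sufficient diet of 220 ppm. The TfR1KO;KspCre mice carried a floxed gene of the transferrin receptor TfR1 (Tfr1f/f) and a Cre recombinase driven by the Ksp-cadherin promoter. That promoter is active in the thick ascending limb, distal tubule and collecting duct, so the recombinase is not directed at the proximal tubule. The comparison asks how the transcripts of the kidney differ after loss of TfR1 in these distal segments.

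The proximal tubule recovers filtered sugars and small organic acids. Sodium-coupled carriers of the Slc5 family stand in the brush border and draw glucose, mannose, fructose or lactate into the cell with sodium, while facilitative carriers of the Slc2 family let sugars pass down their gradient. Slc5a2 (SGLT2) takes up most filtered glucose in the early proximal tubule and Slc5a1 (SGLT1) takes up the remainder further along, and glucose leaves the cell towards the blood through Slc2a2 (GLUT2). Slc2a1 (GLUT1) is the widely expressed carrier of basal glucose uptake, found in the kidney also beyond the proximal tubule.

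Total counts were 18036845 to 21001341 in the controls and 11501053 to 19576330 in the knockouts, as the libraries labelled TfR1KO;KspCre are called from here on. On the first principal component of all tested genes, knockout 1 lay at 9.67 and knockouts 2 and 3 at 88.6 and 82.1, against -72.6 to -53.2 in the controls. Control 2 held 52 counts of Xist and 3980 of 4 Y-linked genes, where the other 5 libraries held 10458 to 23845 and 3 to 5. These counts mark control 2 as male and the other 5 as female, though the labels give no sex. Sex was therefore unbalanced between the groups. Transcripts of the targeted gene Tfrc ranged from 62.0 to 168 counts per 1e6 TMM-scaled counts of the library (CPM) in the controls and from 40.6 to 214 in the knockouts (edgeR adjusted p = 0.911). The highest of all 6 libraries was knockout 1, so Tfrc did not separate the groups as labelled, and counts summed over a gene also take in the exons that are not floxed. Proximal tubule markers were present in every library but lower in the knockouts, where the CPM of the 15 markers summed to 3096 to 10439.5, against 18455 to 24753 in the controls. Leukocyte markers went the other way, with summed CPM of 475 to 1594 in the knockouts and 179 to 189 in the controls. In bulk RNA, fewer cells of a type and less RNA per cell cannot be told apart.

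Of the 10 transporters, 4 passed the test and all 4 were lower in the knockouts, namely Slc5a1, Slc5a2, Slc5a12 and Slc2a2. A gene was called when its adjusted p was under 0.05 in edgeR's quasi-likelihood test, adjusted by the Benjamini-Hochberg method over all 15171 genes. By that rule 17.2% of all genes were called, 6.64% lower and 10.6% higher. In 7 of the 10 transporters every knockout lay below every control, as in 22.2% of all genes, and in 1 every knockout lay above, as in 23.8%. The median log2 fold change of the transporters was -1.65, beside 0.0209 over all genes. Each of the 4 calls was lost when any control, or knockout 2 or 3, was left out of the fit, fits in which few other genes were called either (0.474% of all genes without knockout 2, 0.013% without knockout 3 and 0 without any of the controls). At an unadjusted p under 0.05, 7 transporters passed without control 1, 2 or 3 (beside 31%, 27.4% and 30.9% of all genes), 5 without knockout 2 (29.9%) and 8 without knockout 3 (28.9%), and 8 passed in the fit of all libraries (38.6%). Without knockout 1, 8 transporters were called, 7 lower and 1 higher, beside 34.4% of all genes. DESeq2's Wald test called the same number in the same directions, beside 32.2% of all genes.

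**Figure D1:**
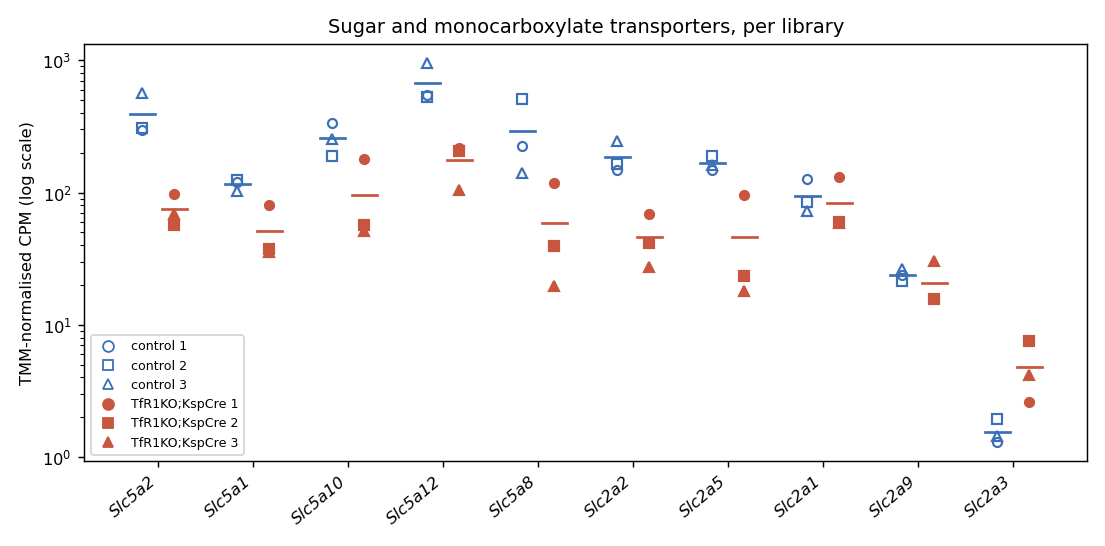
CPM of each transporter in each library on a log axis, with open symbols for controls, filled symbols for knockouts (TfR1KO;KspCre), a circle, square or triangle for replicate 1, 2 or 3, and bars at the group means. Slc2a1 and Slc2a9 overlap between the groups, Slc2a3 lies higher in all 3 knockouts, and the other 7 lie lower.

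The promoters of these genes can be compared through letter sequences that known regulators of sugar transport bind. RefSeq promoters of the GRCm38.p6 build were at hand for 7 of the 10 transporters and not for Slc5a2, Slc5a12 and Slc2a3. The 250 bases before the start of transcription were searched on both strands for CAAAGTCC, a site of Hnf4a, and for ACGTG and GCGTG, the core of the hypoxia response element. Of 32851 promoters of the same length, 1.2% held CAAAGTCC, 16.6% ACGTG and 28.2% GCGTG. None of the 3 was found before Slc2a2, Slc2a5, Slc2a9 or either start of Slc5a10, and Slc5a8 held only GCGTG, at position -175. The 2 sequences below are shown because they hold the remaining matches to these 3, 1 from a called transporter and 1 from a transporter whose groups overlapped. They run 5′ to 3′ on the gene's own strand and capitals mark the matches. In Slc5a1 (chr5:33103969-33104218, plus strand) the letters CACGTG read the same on both strands and so hold ACGTG on each, at -142 and -143, with GCGTG at -118. In Slc2a1 (chr4:119108495-119108744, plus strand) ACGTG lies at -36 and GCGTG on the opposite strand at -61.
Slc5a1: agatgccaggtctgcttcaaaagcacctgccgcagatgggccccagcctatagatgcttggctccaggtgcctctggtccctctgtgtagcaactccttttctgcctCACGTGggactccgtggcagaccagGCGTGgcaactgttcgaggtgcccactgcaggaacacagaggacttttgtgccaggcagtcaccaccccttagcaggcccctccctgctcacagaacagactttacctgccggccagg
Slc2a1: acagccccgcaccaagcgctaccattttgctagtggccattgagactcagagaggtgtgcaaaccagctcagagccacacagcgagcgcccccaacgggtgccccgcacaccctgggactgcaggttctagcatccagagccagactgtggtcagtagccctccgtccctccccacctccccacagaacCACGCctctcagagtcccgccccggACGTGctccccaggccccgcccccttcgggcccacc
A match of letters is no measured binding, and the 2 genes differ in how they stood between the groups, as the counts show next.

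Slc5a2 (ENSMUSG00000030781; mm9 chromosome 7, 135409171 to 135415944, plus strand), the early proximal glucose carrier, was measured at 298, 307 and 565 CPM in controls 1 to 3 and at 98.3, 57.0 and 69.3 CPM in knockouts 1 to 3. The highest knockout therefore lay below the lowest control. The control mean of 390.2 ± 151 CPM stood against a knockout mean of 74.8 ± 21.2 CPM (± SD, with n = 3 in each group), and the edgeR fit left 19.2% of the control level. Slc5a2 fell by 2.38 on the log2 scale (SE 0.34, 95% interval -3.19 to -1.58, edgeR adjusted p = 0.0271). Of its 2277 exon bases, 597 are shared with BC017158 on the opposite strand, and the strand setting of the counting is not given in the sources used here, so some of its reads may belong to that gene.

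Slc5a1 (ENSMUSG00000011034; chromosome 5, 33446868 to 33505521, plus strand), the high-affinity glucose and galactose carrier of the later proximal tubule, was at 121, 125 and 103 CPM in the controls and 80.2, 37.4 and 35.3 CPM in the knockouts. It fell less than Slc5a2 in these estimates, by 1.19 on the log2 scale (SE 0.33, 95% interval -1.97 to -0.42, edgeR adjusted p = 0.0497). The means were 117 ± 11.7 and 51.0 ± 25.3 CPM (SD, n = 3 each), and 43.7% of the control level was left in the fit. Its adjusted p lay next to the threshold, and the call was lost with library size alone as scaling (adjusted p = 0.0561) and with a minimum of 10 counts in every library (adjusted p = 0.0502).

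The 2 sodium-glucose carriers were compared within each library, where library size cancels out. The log2 ratio of Slc5a2 to Slc5a1 was 1.30, 1.29 and 2.45 in the controls and 0.29, 0.61 and 0.97 in the knockouts. All 3 knockouts lay below all 3 controls, with a mean difference of -1.06, which was -0.67 without control 3. The exact two-sided permutation test gave p = 0.1 (adjusted p = 0.267 over the 8 ratios examined), and 0.1 is the smallest p that 3 against 3 libraries allow, so no ratio could reach 0.05.

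Slc2a2 (ENSMUSG00000027690; chromosome 3, 28596825 to 28627278, plus strand), the basolateral exit for glucose, was at 149, 165 and 244 CPM in the controls and 69.1, 41.5 and 27.4 CPM in the knockouts. The groups did not overlap, with a knockout mean of 46.0 ± 21.2 CPM and a control mean of 186 ± 50.7 CPM (SD, n = 3 each), and 24.8% of the control level was left in the fit. Slc2a2 fell by 2.01 on the log2 scale (SE 0.37, 95% interval -2.88 to -1.14, edgeR adjusted p = 0.0295). Transcripts of the main apical carrier Slc5a2 and of Slc2a2 thus both fell, and their log2 ratio, Slc2a2 to Slc5a2, overlapped between the groups, at -1.21 to -0.90 in controls and -1.33 to -0.46 in knockouts (exact permutation test, p = 0.4).

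Mannose and fructose have carriers of their own. Slc5a10 (ENSMUSG00000042371; chromosome 11, 61486283 to 61534328, minus strand), known as SGLT5, takes up mannose and fructose with sodium, and was at 336, 189 and 255 CPM in the controls and 179, 56.5 and 51.4 CPM in the knockouts. Knockout 1 lay just under control 2, the lowest control. The log2 fold change of -1.44 (SE 0.52, 95% interval -2.66 to -0.22) did not pass the test (edgeR adjusted p = 0.0891), and without knockout 1 it was -2.28 and called (adjusted p = 0.00333). Of its 2275 exon bases, 393 are shared with Fam83g and 3 with Grap. Slc2a5 (ENSMUSG00000028976; chromosome 4, 149493392 to 149518278, plus strand), the fructose carrier GLUT5, was at 149, 188 and 161 CPM in the controls and 96.5, 23.4 and 18.0 CPM in the knockouts. Its controls lay close together and its knockouts spread widely, with SDs of 19.5 and 43.8 CPM around means of 166 and 46.0 CPM (n = 3 each). The log2 fold change was -1.85 (SE 0.62, 95% interval -3.32 to -0.38) and did not pass the test either (edgeR adjusted p = 0.0762). Without knockout 1 it was -3.01 and called (adjusted p = 0.00223).

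The sodium-coupled monocarboxylate carriers recover lactate, pyruvate, nicotinate and related acids. Slc5a12 (SMCT2; ENSMUSG00000041644; chromosome 2, 110437455 to 110487936, plus strand), the low-affinity form, was at 547, 530.4 and 955 CPM in the controls and 218, 208 and 105 CPM in the knockouts. All knockouts lay under all controls, at a mean of 177 ± 62.7 CPM against 678 ± 241 CPM (SD, n = 3 each), with 26.1% of the control level left in the fit. Slc5a12 fell by 1.94 on the log2 scale (SE 0.38, 95% interval -2.83 to -1.05, edgeR adjusted p = 0.0305). Slc5a8 (SMCT1; ENSMUSG00000020062; chromosome 10, 88348737 to 88392250, plus strand), the high-affinity form, was at 224, 507 and 140.4 CPM in the controls and 118, 39.2 and 19.5 CPM in the knockouts. Control 2, the library marked as male, held more than the other controls, and control 3 lay close to knockout 1. The log2 fold change of -2.30 was nearly as large as that of Slc5a2, but its SE of 0.75 was larger (95% interval -4.07 to -0.52) and it did not pass the test (edgeR adjusted p = 0.0718). Without knockout 1 it was -3.31 and called (adjusted p = 0.0125), and without control 2 it was -1.63 (adjusted p = 0.199). The log2 ratio of Slc5a12 to Slc5a8 spread from 0.0661 in control 2 to 2.77 in control 3, a range that held all 3 knockouts (exact permutation test, p = 0.7).

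In all 7 of these transporters knockout 1 was the highest of the knockouts, as it was the knockout nearest the controls on the first principal component.

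**Figure D2:**
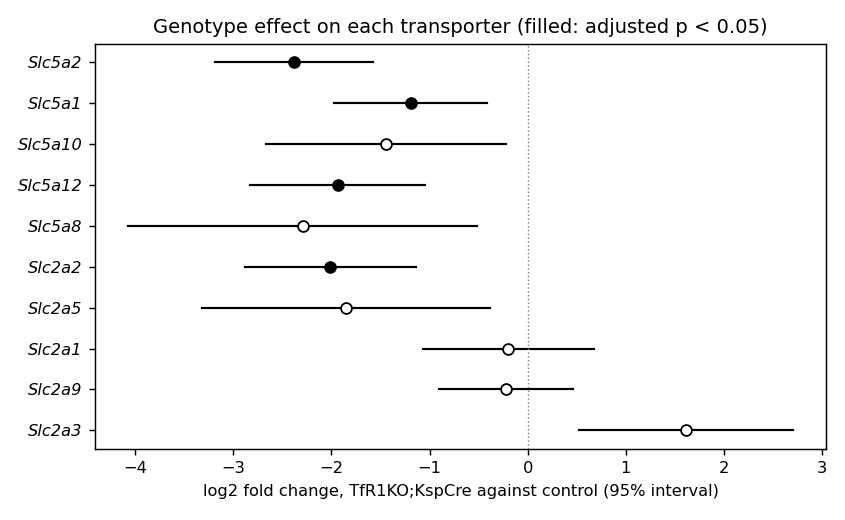
Log2 fold change of each transporter, knockout minus control, with its 95% interval from the edgeR fit, filled where the adjusted p was under 0.05. The 4 filled points are Slc5a2, Slc2a2, Slc5a12 and Slc5a1, and the intervals of Slc2a1 and Slc2a9 cross 0.

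Slc2a1 (ENSMUSG00000028645; chromosome 4, 118781316 to 118809935, plus strand), the basal glucose carrier, was at 128, 84.3 and 72.9 CPM in the controls and 130.4, 59.5 and 58.6 CPM in the knockouts. The groups overlapped, since knockout 1 was the highest library of all 6 and the other knockouts were the lowest. The log2 fold change was -0.20 (SE 0.37, edgeR adjusted p = 0.721), and its 95% interval from -1.07 to 0.68 holds both a fall and a rise of moderate size. Its sign changed to 0.0426 with library size alone as scaling and to 0.0565 without control 1, while without knockout 1 it was -0.69 (adjusted p = 0.0807) and without knockout 2 or 3 it was -0.00577 or -0.000344. Against Slc2a2 within the same library, Slc2a1 stood higher in every knockout than in any control, with log2 ratios of -0.22, -0.97 and -1.74 in the controls and 0.92, 0.52 and 1.09 in the knockouts. The mean difference was 1.82 (exact two-sided permutation test, p = 0.1). Slc2a2 itself fell by 2.01 on the log2 scale, so a gene that stays level stands higher against it. How many of all genes did so was not counted. Per kilobase of exon, Slc2a2 was the higher of the pair in each control, at 58.0, 64.3 and 94.9 CPM against 44.7, 29.6 and 25.5 for Slc2a1, and Slc2a1 was the higher in each knockout, at 45.7, 20.8 and 20.5 against 26.9, 16.2 and 10.7.

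Slc2a9 (ENSMUSG00000005107; chromosome 5, 38740512 to 38894382, minus strand), known as GLUT9, carries urate and was at 23.8, 21.6 and 26.5 CPM in the controls and 15.8, 15.6 and 30.5 CPM in the knockouts. Knockout 3 was the highest library and knockouts 1 and 2 the lowest, so the groups overlapped. The log2 fold change was -0.22 (SE 0.29, 95% interval -0.90 to 0.46, edgeR adjusted p = 0.600), and it turned to 0.0575 with library size alone as scaling. Without knockout 3 it was -0.61 (adjusted p = 0.0955), and it lay between -0.30 and -0.0566 without any other library. Its log2 ratio to Slc2a2 ran from -3.19 to -2.64 in the controls and from -2.12 to 0.15 in the knockouts without overlap (exact permutation test, p = 0.1). The group means were -2.92 and -1.12, a difference that came down to 1.16 without knockout 3. The fall of Slc2a2 enters this ratio too, and the share of all genes that stood higher against Slc2a2 was not counted.

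Slc2a3 (ENSMUSG00000003153; chromosome 6, 122677827 to 122751658, minus strand), known as GLUT3, is a high-affinity glucose carrier of neurons and leukocytes. It had the lowest level of the 10 also per kilobase of exon, with 26, 33 and 24 counts in the controls and 53, 151 and 54 counts in the knockouts, or 1.29, 1.94 and 1.44 CPM and 2.60, 7.58 and 4.14 CPM. It was the only one of the 10 that was higher in every knockout. The log2 fold change of 1.61 (SE 0.46, 95% interval 0.52 to 2.70) fell just short of the threshold (edgeR adjusted p = 0.0537). It was called higher with upper quartile scaling (adjusted p = 0.0485), with library size alone (adjusted p = 0.0330), with a minimum of 10 counts in every library (adjusted p = 0.0491) and by DESeq2's Wald test (adjusted p = 0.00964). It was not called with DESeq2 size factors (adjusted p = 0.0554), without a filter (adjusted p = 0.0580), with the newer quasi-likelihood version (adjusted p = 0.0503) or by limma-voom (adjusted p = 0.0809). Without knockout 2 its log2 fold change was 1.10 (adjusted p = 0.130), and without knockout 1 it was 1.90 and called (adjusted p = 0.0145). Of 9 leukocyte markers tested, 7 rose, beside 10.6% of all genes, with a list median of 2.69 on the log2 scale. The log2 CPM of Slc2a3 minus the median log2 CPM of these markers was -3.21 to -2.08 in the controls and -3.76 to -3.33 in the knockouts. The part of leukocytes in the Slc2a3 level was not tested.

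**Figure D3:**
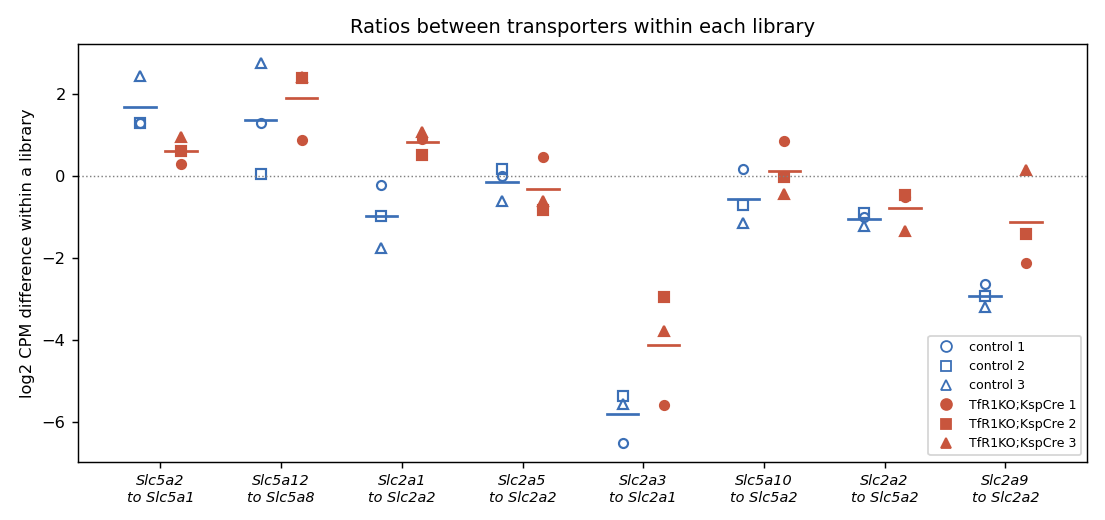
Log2 ratio of the CPM of 8 pairs of transporters in each library, with open symbols for controls, filled symbols for knockouts and bars at the group means. The ratios of Slc2a1 and Slc2a9 to Slc2a2 lie higher in all 3 knockouts, that of Slc5a2 to Slc5a1 lies lower, and the other 5 overlap.

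Levels of different genes were compared as CPM per kilobase of exon. In the controls Slc5a12 (187 ± 66.4), Slc5a2 (171 ± 66.5) and Slc5a10 (114 ± 32.4) were the most abundant transporters, followed by Slc2a2 (72.4 ± 19.8), Slc5a8 (54.5 ± 36.1) and Slc2a5 (52.6 ± 6.18; SD, n = 3 each). Each neighbour in this order overlapped the next. Slc2a5 lay above Slc2a1 (33.3 ± 10.1) without overlap, Slc2a1 overlapped Slc5a1 (28.3 ± 2.83), and Slc2a9 (5.90 ± 0.611) and Slc2a3 (0.357 ± 0.0775) each lay below their upper neighbour. In the knockouts the order was Slc5a12 (48.8 ± 17.3), Slc5a10 (42.0 ± 31.7), Slc5a2 (32.9 ± 9.32), Slc2a1 (29.0 ± 14.4), Slc2a2 (17.9 ± 8.25), Slc2a5 (14.6 ± 13.9), Slc5a1 (12.4 ± 6.15), Slc5a8 (11.1 ± 9.83), Slc2a9 (5.07 ± 2.10) and Slc2a3 (1.09 ± 0.583). Slc2a1 moved from rank 7 of the 10 in the controls to rank 4 in the knockouts, but in the knockouts neighbours overlapped except Slc2a9 and Slc2a3.

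Since markers of the proximal tubule were lower in the knockouts, each transporter was also set against them. Of the 15 markers 9 fell, beside 6.64% of all genes, with a list median of -2.07 on the log2 scale. The difference between a transporter's log2 CPM and the median log2 CPM of the 15 markers was taken in each library. For Slc5a2 it was -1.24, -1.72 and -0.61 in the controls and -2.09, -2.18 and -1.01 in the knockouts, which overlapped. For all 7 transporters whose CPM was lower in the knockouts the groups overlapped on this scale, with mean differences from -0.70 for Slc5a8 to 0.49 for Slc5a1. Slc5a2 differed by -0.57, Slc2a5 by -0.47, Slc2a2 by -0.30, Slc5a12 by -0.17 and Slc5a10 by 0.13. Slc2a1 (by 1.52), Slc2a3 (by 3.22) and Slc2a9 (from -5.55 to -4.88 in the controls to -4.72 to -2.19 in the knockouts) stood higher in every knockout relative to the markers, as did 87.7% of all genes tested, while 0.587% of all genes stood lower. Against shorter lists of 6 early and 6 late proximal tubule markers, of which 5 and 2 fell, Slc5a1 stood higher in every knockout than in any control, by 0.84 and 0.97, as did 92.8% and 83.9% of all genes. Slc2a1 (by 1.87 and 2.00) and Slc2a3 (by 3.57 and 3.70) stood higher against both lists, Slc2a9 stood higher against the early list (by 1.85) and overlapped against the late list, and the other 6 transporters overlapped against both. In the late list Slc7a13 was at 879.5 CPM in control 2, the library marked as male, and at 0.843 to 18.1 CPM in the other libraries. Whether the change in proximal tubule markers accounts for the lower transporters was not tested.

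**Figure D4:**
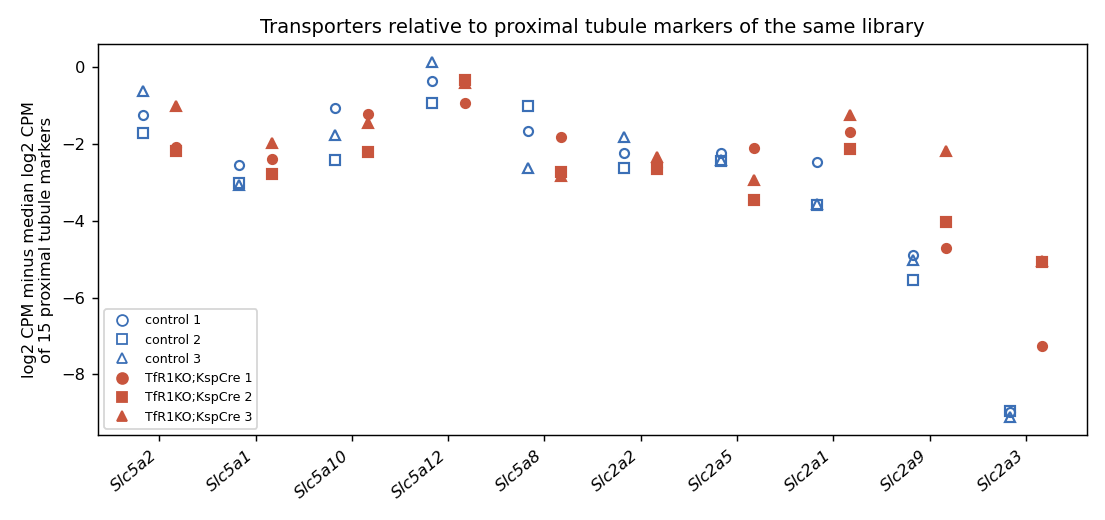
Log2 CPM of each transporter minus the median log2 CPM of 15 proximal tubule markers in the same library, with open symbols for controls and filled symbols for knockouts. The 7 transporters that were lower in CPM overlap between the groups here, and Slc2a1, Slc2a9 and Slc2a3 lie higher in the knockouts.

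Markers of other cell types were counted by their calls. None of 6 thick ascending limb markers and none of 6 endothelial markers passed the edgeR test, beside 17.2% of all genes. The list medians were -1.40 and 0.37 on the log2 scale. At an unadjusted p under 0.05, 1 of the former was lower and 2 of the latter were higher, and DESeq2 called 1 of each list in these directions. All 5 markers of tubular injury rose, beside 10.6% of all genes, while limma-voom called 3 of them, beside 13.4% of all genes in either direction. Their list median was 4.04, with summed CPM of 19.9 to 25.9 in controls and 350.5 to 620.5 in knockouts. Of 5 red cell genes, 4 globin genes were at 0 counts in every library and Alas2 was not called. The part of these other cell types in the transporter levels was not tested.

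The relatives of the 10 transporters showed calls in both directions. Of 6 other facilitative carriers tested of 7, 1 fell and 2 rose, beside 6.64% and 10.6% of all genes. With limma-voom 1 was called lower and 0 higher, with 2 higher at an unadjusted p under 0.05, and DESeq2 called 2 in each direction. Slc2a12, a glucose carrier known as GLUT12, fell by 1.93 on the log2 scale (edgeR adjusted p = 0.0295), from 16.5, 17.6 and 22.9 CPM in the controls to 7.26, 4.62 and 2.91 CPM in the knockouts. Slc2a6, a carrier of lysosomes in immune cells, rose by 2.58 (adjusted p = 0.0326), from 1.09, 0.882 and 1.74 CPM to 3.29, 7.28 and 11.9 CPM. Slc2a10, a carrier of the facilitative family that is also linked to arterial disease, rose by 1.83 (adjusted p = 0.0450). The insulin-responsive carrier Slc2a4 had a log2 fold change of -0.92 and was not called. Of 5 other sodium cotransporters tested of 8, all 5 had a log2 fold change below 0 and 1 was called, beside 17.2% of all genes, while limma-voom called 2, beside 13.4% of all genes, and DESeq2 4, beside 32.2%, all lower. This was Slc5a6, a carrier of biotin and pantothenate, which fell by 1.66 (edgeR adjusted p = 0.0277). The inositol carrier Slc5a3 was at 876, 629 and 249 CPM in the controls and 328, 90.6 and 131 CPM in the knockouts, which overlapped.

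The passive monocarboxylate carriers of the Slc16 family work beside Slc5a8 and Slc5a12 and let lactate leave the cell. Of these and their chaperones, 15 genes were tested, 5 fell and 0 rose in the edgeR test, beside 6.64% and 10.6% of all genes. At an unadjusted p under 0.05, 7 were lower and 2 higher, beside 38.6% of all genes in either direction. DESeq2 called 6 lower and 1 higher, beside 32.2%. Those that fell included Slc16a14 (-3.34), Slc16a4 (-2.37), the aromatic amino acid carrier Slc16a10 (-0.95) and Slc16a13 (-0.91, log2 fold changes). The lactate carrier Slc16a1 had a log2 fold change of -0.28 with overlapping groups, and the chaperone Bsg of -0.32. Slc16a3, the lactate carrier of glycolytic cells, was at 2.69, 1.18 and 3.54 CPM in the controls and 12.5, 8.33 and 5.06 CPM in the knockouts, and missed the threshold (edgeR adjusted p = 0.0508).

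Of 14 tested genes that act with sugar transport, 6 fell, 1 rose and 7 were not called, beside 6.64% lower and 10.6% higher of all genes. DESeq2 called 8 lower and 2 higher, beside 32.2% of all genes in either direction. The newer quasi-likelihood version of edgeR called 4 lower and 1 higher, beside 1076 lower and 1675 higher of all 15171 genes. The transcription factor Hnf4a (-1.59), which drives proximal tubule genes, fell, as did the brush border scaffold Pdzk1 (-1.88). Of the enzymes and carriers past the membrane, the glucose-6-phosphate carrier Slc37a4 (-1.61) and the sorbitol dehydrogenase Sord (-1.84) fell on the same scale. The fructokinase Khk (-1.61, edgeR adjusted p = 0.0604) and Pdzk1ip1, the small partner that activates Slc5a2 (-0.97, edgeR adjusted p = 0.0632), were not called. Arrdc4, an arrestin that takes glucose carriers off the membrane, rose by 1.31, from 28.9, 18.8 and 34.4 CPM in the controls to 48.6, 73.5 and 81.9 CPM in the knockouts. Its relative Txnip had a log2 fold change of 0.62 with overlapping groups. Of 6 genes of urate transport and breakdown, 1 fell, the urate exporter Slc17a3 (-2.78), and 0 rose in the edgeR test, beside 6.64% and 10.6% of all genes. At an unadjusted p under 0.05, 5 were lower and 1 higher, beside 38.6% of all genes in either direction. DESeq2 called 5 of the 6 lower, beside 32.2% of all genes called in either direction, and 0 higher. The urate exporter Abcg2 (-1.31, edgeR adjusted p = 0.0531) and the uptake carrier Slc22a12 (-1.69, edgeR adjusted p = 0.113) were not called in the edgeR test. Over the 5 lists 17 of 46 genes were called, beside 17.2% of all genes, 14 of them lower and 3 higher. All 17 calls were lost when any control, or knockout 2 or 3, was left out, where 25 to 29 genes had an unadjusted p under 0.05 beside 27.4% to 31% of all genes, and 34 genes were called without knockout 1.

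**Figure D5:**
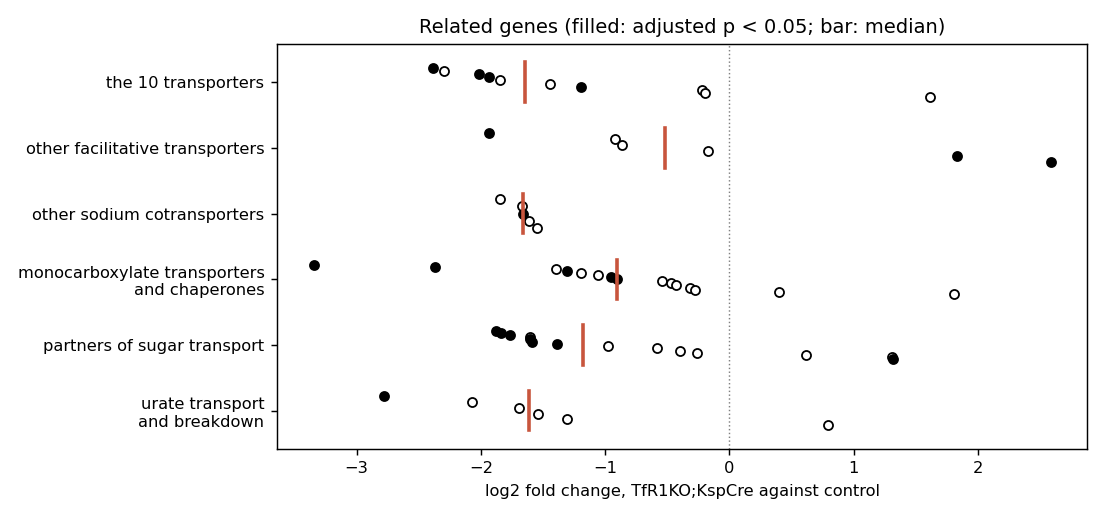
Log2 fold change, knockout minus control, of the 10 transporters (top row) and of the tested genes of 5 lists related to them, filled where the edgeR adjusted p was under 0.05, with a red bar at each list's median. The medians of the 5 lists lie between -1.66 (other sodium cotransporters) and -0.52 (other facilitative carriers).

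Genes with the most similar profile were sought by Pearson's r of log2 CPM over the 6 libraries, among 11329 genes with a mean log2 CPM of at least 3. With 3 libraries in each of 2 separate groups, a shared group difference alone gives a high r. The nearest gene was Kif1bp for Slc5a1 (r = 0.999), Rab9 for Slc5a2 (0.994), Sema4d for Slc2a2 (0.999), Dzank1 for Slc5a12 (0.998), Mep1a for Slc5a8 (0.998) and Gpr89 for Slc5a10 (0.996). Mep1a encodes a brush border protease. Between 173 and 1139 genes had an r of at least 0.95 with each of the 7 transporters that lay lower in the knockouts. For Slc2a1 and Slc2a9, whose groups overlapped, 8 genes each did, led by Fst (0.992) and Nhp2l1 (0.977). For Slc2a3 there were 205, led by Fam46a (0.997).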

How the data were processed

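The deposited values were raw counts for each gene, which the authors left unnormalized, and each group had its own table. Per the labels and the study's methods, reads were called with CASAVA 1.8.2, trimmed with Trimmomatic, aligned to mm9 with TopHat2 2.0.11 and, where uniquely mapped, counted with HTSeq. The annotation and strand setting are not given in the sources used here. Groups and replicate numbers came from the sample titles.

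Genes were filtered with filterByExpr (minimum count 10, minimum total 15), which kept 15171 of 24422. Counts were scaled by TMM and tested with edgeR 4.0.16 (glmQLFit and glmQLFTest, legacy version) in R 4.3.3, over all 6 libraries without a covariate, with Benjamini-Hochberg adjustment over the genes tested. The SE is the size of the log2 fold change divided by the square root of F. CPM is per 1e6 TMM-scaled counts, and log2 CPM used a prior count of 2. Ratios within a library were compared by exact permutation of the 6 libraries. Chi-square per degree of freedom was 52.9 to 125.5 between libraries of a group, which is above sampling noise, and p-values measure only the spread between these samples. The fit was tested on simulated data first.

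Alternatives were DESeq2 1.42.0 size factors and its Wald test, scaling by upper quartile or by library size alone, either no filter or 10 counts in every library, limma-voom (limma 3.58.1), the newer quasi-likelihood version, each library left out, a replicate block, and a covariate made from Xist and Y-linked counts. The transporters and gene lists were chosen with earlier results of these data known. The genes named from the related lists were those called and, of the others, some of the 4 of highest average log2 CPM, while Slc16a1 and Slc16a3 were added after their values were seen. Of the 3 genes most like each transporter the first is named. Some genes of the lists and of the likeness search, and part of the promoter search, are not reported here. Coordinates of genes are from GENCODE M1 on mm9. All 100-base words of the longest transcripts of the 10 genes were unique among the transcripts compared. Proteins were not used here.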

Additional observations from a re-analysis of the deposited data

How the results depend on the processing

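Of the alternatives to the main fit, those that leave fewer libraries or degrees of freedom changed the most calls. Over all genes the main fit called 2612, DESeq2's Wald test 4882 and the fits with the replicate block or the Xist to Y-linked covariate 0 each, with 5432 and 4286 genes at an unadjusted p under 0.05. Leaving out 1 library gave 0 to 5332 calls over all genes, 0 to 8 among the 10 transporters and 0 to 34 among the 46 related genes. Among the transporters DESeq2 called 8, and the block and the covariate 0 each. Among the related genes DESeq2 called 30, and the block and the covariate 0 each. Replicate numbers were not taken as pairs in the main fit. Deviations from the group means correlated at -0.13, 0.01 and 0.21 between libraries of the same number, which cannot exclude a pairing. The sample titles name no litter, while the paper describes its controls as littermates. The block result is given only in this section.

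With the block the log2 fold change was -1.30 for Slc5a1 (adjusted p = 0.0740), -2.35 for Slc5a2 (0.0713), -1.94 for Slc5a12 (0.0780) and -2.08 for Slc2a2 (0.0740). With the covariate it was -1.14 for Slc5a1 (adjusted p = 0.134), and -2.52 for Slc5a2, -2.09 for Slc5a12 and -2.09 for Slc2a2 (0.107 each). For Slc5a8 it was -1.64 with the covariate (adjusted p = 0.193), against -2.30 in the main fit. Slc5a1 was also not called with library size alone (-0.94) or when each library had to hold at least 10 counts (-1.18). The Wald test of DESeq2 called Slc5a8 (-2.32), Slc5a10 (-1.47), Slc2a5 (-1.88) and Slc2a3 (1.60). Slc2a3 was called with upper quartile scaling (1.70), library size alone (1.91) and at least 10 counts in every library (1.63). Slc2a1 turned to 0.0426 and Slc2a9 to 0.0575 with library size alone, a scaling that moves the median over all genes on the log2 scale from 0.0209 to 0.292 and makes 2985 of its 3647 calls higher, against 1604 of 2612 in the main fit. The cause of these changes was not tested.

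Without 1 library at a time the log2 fold change ranged from -1.69 to -0.99 for Slc5a1, -2.64 to -2.02 for Slc5a2, -3.31 to -1.63 for Slc5a8, -2.28 to -1.14 for Slc5a10, -2.13 to -1.61 for Slc5a12, -0.69 to 0.0565 for Slc2a1, -2.44 to -1.75 for Slc2a2, 1.10 to 1.90 for Slc2a3, -3.01 to -1.47 for Slc2a5 and -0.61 to -0.0566 for Slc2a9. The difference in the log2 ratio of Slc5a12 to Slc5a8 ranged from -0.128 (without control 2) to 1.22, and that of Slc2a5 to Slc2a2 from -0.58 to 0.0736 (without knockout 2). The other 6 ratios kept their sign in each of these fits, with ranges of -1.25 to -0.67 (Slc5a2 to Slc5a1), 1.44 to 2.20 (Slc2a1 to Slc2a2), 1.12 to 2.44 (Slc2a3 to Slc2a1), 0.34 to 1.07 (Slc5a10 to Slc5a2), 0.12 to 0.55 (Slc2a2 to Slc5a2) and 1.16 to 2.29 (Slc2a9 to Slc2a2). The smallest library held 11501053 counts, and Slc2a3 rests on 24 to 151 counts a library, the fewest of the 10.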
